A study of Mus musculus with 5 samples.

Results

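Solute carrier genes encode membrane transporters, and this account follows the Ago-bound fragments of their mRNAs through mouse liver development. Members were all genes whose symbol starts with Slc and a digit and which had an entry in an mRNA region (CDS, 5′UTR or 3′UTR) in at least 1 of the 5 tables of miRNA-target interactions. Slc4a1 and Slc40a1 were set aside by this rule. It gave 274 genes of the 14348 genes listed in these regions over all stages. The rule reads the symbol alone, so 4 of the 274 genes are named after a carrier without being transporters (Slc4a1ap, Slc7a6os, Slc9a3r1 and Slc9a3r2). The livers came from C57BL/6 mice (C57BL/6J in the study's methods), at 3 fetal stages (e12.5, then e15.5, then e18.5), at postnatal day 7 (P7) and as adults of 6 to 8 weeks. Rows of 5 values below are in this order. Ago was precipitated with Ago2 antibodies before birth and with Ago1 and Ago2 antibodies after it, so antibody and stage after birth cannot be told apart. The labels give 1 sample for each stage, so no difference between stages could be tested against replicates, and every comparison is between single tables.

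Solute carriers move sugars, amino acids, organic acids, nucleosides, vitamins, metals and inorganic ions across the plasma membrane, the mitochondrial inner membrane and the membranes of other organelles. Hepatocytes use them to take up bile acids, amino acids and drugs from blood, and to exchange urea cycle and fatty acid intermediates with mitochondria. The fetal liver is also a site of blood formation, where erythroid cells import iron and make heme. In Ago HITS-CLIP, ultraviolet light (254 nm) links RNA to Ago in the tissue, and the bound mRNA fragments form clusters of overlapping reads. A miRNA pairs with its target mainly through its seed, bases 2 to 8 from its 5′ end. Each entry of the tables is a seed match in a cluster, classed from the 8mer, the longest, to the 7mer-m8, 7mer-A1 and 6mer.

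The tables held between 42466 and 95118 mRNA clusters, and the e12.5 table was the deepest. Reads of a gene are the highest read number of each of its clusters, added up over clusters and divided by the summed reads of all clusters of the table (rpm, with 1000000 summed reads as the unit). The summed reads ranged from 13008703 at e18.5 to 44867326 at e12.5. The share of these reads in mRNA clusters was 23.3%, 29.7%, 30.03%, 20.5% and 13.5%. For genes listed in both tables, the median log2 ratio of adult over e12.5 was −0.86 over all 8865 genes, and it lay 0.79 higher when reads were scaled to mRNA clusters alone. A gene that is not listed had no cluster with at least 5 reads and a seed match, which is not a level of 0. In whole liver, fewer cells of a type and less RNA per cell cannot be told apart, and an mRNA that is more abundant and an mRNA that is bound more often cannot be told apart either.

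All 6 hepatocyte marker genes were listed at every stage, and their summed reads were 859, 2611, 6847, 8734 and 9999 rpm. Of 5 erythroid markers, 4 were listed up to P7 and only Alas2 in adult liver, and their sums were 1270, 2765, 964.5, 206 and 3.21 rpm. Of 3 pancreas markers, none was listed before birth, and Cela1 alone was listed after birth, at 0.424 and 1.45 rpm. The fetal hepatocyte gene Afp had 544, 1523, 972 and 787 rpm up to P7 and was not listed in adult liver. The 3 endothelial markers summed to 5.10, 13.1, 19.99, 113 and 65.7 rpm, the macrophage markers (Csf1r and, from e18.5, Cd68 of 3) to 2.61, 4.96, 35.5, 41.2 and 34.4 rpm, and the biliary markers, not listed at e15.5, to between 2.73 and 14.5 rpm. The part of these cell mixtures in the results below was not tested.

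Solute carrier clusters were spread over many genes at every stage. The number of members listed was 213, 165, 178, 222 and 211. Of the 274 members, 122 were listed at all 5 stages (44.5%, against 45.5% of all genes) and 38 at 1 stage alone (13.9%, against 13.3%). The median member had 4, 3, 3, 5 and 4 clusters, and the median gene of the whole table had 5, 3, 3, 4 and 3.

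The share of mRNA clusters that lay in solute carrier genes was lowest at e12.5 and highest in adult liver, though with the first list of the embryonic tables alone e12.5 (2.23%) lay above e18.5 (2.16%) and P7 (2.19%). It was 1.85% (Wilson 95% interval 1.76 to 1.93), 2.07% (1.94 to 2.20), 2.09% (1.96 to 2.23), 2.19% (2.09 to 2.30) and 2.76% (2.63 to 2.91). These intervals cover counting error only, and whether reads were collapsed by the barcode of the linker is not given in the sources used here. The e12.5 interval lies below the others, those of e15.5, e18.5 and P7 overlap, and the adult interval lies above the rest. The adult share was 0.918 percentage points above the e12.5 share, with an interval of 0.755 to 1.08, and 0.531 points above it with the first list of the e12.5 table alone. Among genes listed, members made up 1.80% at e12.5 and 2.08% in adult liver, with overlapping intervals (1.58 to 2.06 and 1.82 to 2.37). The share of mRNA cluster reads had no such order, with 1.62%, 1.75%, 1.43%, 1.60% and 2.38%. The 5 members with most reads carried 36.2%, 40.1%, 26.0%, 21.03% and 34.8% of all member reads.

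The kinds of transporter that carried these reads differed between the stages. Mitochondrial carriers (the Slc25 subfamily) held 32.4%, 35.5%, 23.8%, 18.9% and 13.4% of member reads. Amino acid transporters held 16.3%, 19.4%, 20.8%, 23.5% and 36.2%. Transporters and ligases for bile acids, fatty acids and choline held 1.22%, 0.621%, 5.19%, 5.45% and 9.43%, and nucleoside transporters 1.30%, 0.576%, 1.43%, 2.16% and 5.93%. Sugar transporters held 7.36%, 9.50%, 8.38%, 4.66% and 2.90%, and carboxylate transporters 10.7% at e12.5 and 5.23% in the adult table. The number of members behind these shares was 41 mitochondrial carriers, 42 amino acid transporters, 16 of the bile acid, fatty acid and choline class and 5 nucleoside transporters. Single genes held much of them. Slc25a37 had 51.6% of the mitochondrial carrier reads at e12.5, and Slc38a4 had 45.7% of the amino acid transporter reads and Slc29a1 89.4% of the nucleoside transporter reads in adult liver. The typical member of a class did not follow its share, as the median log2 ratio of adult over e12.5 was −0.93 for 22 amino acid transporters and 0.21 for 33 mitochondrial carriers listed in both tables.

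**Figure D1:**
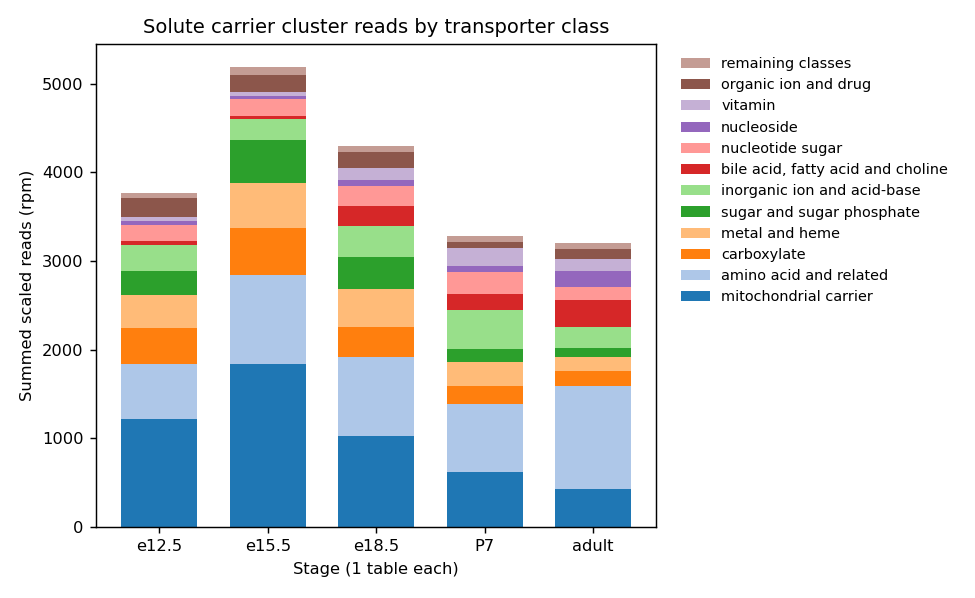
Summed scaled reads (rpm, y axis) of solute carrier genes at each stage (x axis, 1 table each), stacked by transporter class. Mitochondrial carriers are the largest part at e12.5 (1220 rpm) and e15.5 (1841 rpm), and amino acid transporters are the largest part in adult liver (1160 rpm).

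Slc25a37 (mitoferrin, which brings iron into mitochondria for heme) had more reads than any other member in the 3 fetal tables. Its scaled reads were 629.8, 1059, 435, 92.7 and 3.50 rpm. Behind these values were 28258 reads in 43 clusters at e12.5 and 87 reads in 6 clusters in adult liver. The log2 ratio of adult over e12.5 was −7.49, the lowest of all members, and −6.17 with the highest cluster alone. Most of its clusters lay in the 3′UTR, 35 and 44 in the first 2 tables. Its 3′UTR carried an 8mer for miR-16-5p with 915, 197 and 76 reads in the fetal tables, and that site was not listed later. Sites of other seed types had more reads at e12.5. They were a 6mer for miR-126a-3p in the 3′UTR (1548 reads) and a 7mer-A1 for miR-122-5p in the CDS (1380 reads). The 8mer, chosen after the values were seen, is shown with its miRNA for the length of its match, and capitals mark the seed and the match. Positions here and below are those of mm10 (GRCm38).
miR-16-5p, mature sequence: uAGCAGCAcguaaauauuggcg
Slc25a37, 3′UTR, chr14:69241894-69241915, minus strand, 8mer for miR-16-5p: gtggatgtctgtcgTGCTGCTA
A 7mer-A1 for miR-486a-5p, a miRNA of erythroid cells, lay in the same gene with 766, 159 and 171 reads. It was not listed at P7 or in adult liver either.

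Other erythroid and heme carriers were also higher at e12.5 than in adult liver. Slc25a39, the mitochondrial glutathione carrier, had 156, 245, 124, 20.97 and 11.6 rpm. Slc11a2 (DMT1, a divalent metal transporter) had 73.8, 73.6, 20.99, 17.2 and 5.87 rpm. Slc14a1, the urea transporter of red cells, had 23.1, 45.4, 8.69 and 4.73 rpm from e12.5 to P7 and was not listed in adult liver. Of the 7 genes of this list, 5 were listed in the first and the last table, 4 of these were at least 4-fold lower in adult liver, where 29.25% of all genes were, and none was 4-fold higher, where 12.48% were. The exception was Slc25a38, a glycine carrier for heme synthesis, with a log2 ratio of −1.83, and its value at e18.5 (1.999 rpm) lay below the adult one (2.73 rpm). When reads were scaled to mRNA clusters alone, each ratio lay 0.79 higher, so that Slc48a1 (heme export from endosomes, −2.04) also fell short of 4-fold. The summed reads of the list were 922, 1469, 611, 144 and 30.2 rpm, beside the erythroid marker sums given above. Each embryonic table consists of 2 lists of entries. Slc25a37 had 1130 rpm in the first list of the e12.5 table and 383 rpm in the second, a difference in the direction of all genes, whose median log2 ratio of second over first list was −0.93.

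Several carriers of proliferating cells were also higher in the fetal tables. Slc2a1, the glucose transporter GLUT1, had 170.5, 343, 185, 6.55 and 8.68 rpm. The 3 fetal values lay well above the others, and the log2 ratio of P7 over e18.5 was −4.82. Slc7a5 (LAT1, large neutral amino acids) had 56.6, 105, 40.4, 19.8 and 0.964 rpm. Slc7a1 (CAT1, cationic amino acids) had 72.1, 97.0, 21.1, 18.0 and 2.69 rpm. Slc38a1, a neutral amino acid transporter, had 16.8, 40.0, 7.61 and 3.45 rpm up to P7, and its adult value of 0.201 rpm rests on 5 reads in 1 cluster. Slc38a2, of the same subfamily, differed less, with 74.1, 120, 62.0, 56.9 and 63.5 rpm. When its reads are scaled to mRNA clusters, its adult value is the highest of all stages. Of the 9 genes of the growth list, 8 were listed at both ends, 4 of them at least 4-fold lower in adult liver (29.25% of all genes) and none 4-fold higher (12.48%). With reads scaled to all clusters, a single gene of the list had a positive log2 ratio. It was the folate carrier Slc19a1 at 1.54, with 1.03 rpm at e12.5 and 2.97 rpm in adult liver. Slc1a5, the glutamine transporter ASCT2, was listed from e12.5 (24.1 rpm) to P7 (7.94 rpm) and not in adult liver.

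Further members were high in the fetal tables as well. Slc22a23, an orphan of the organic ion family, had 215, 179.5, 168, 49.2 and 21.8 rpm, and it had more clusters (57) than any other member at e12.5. Slc16a6, a monocarboxylate transporter that exports ketone bodies, had 192, 157, 140.4, 15.2 and 5.38 rpm. Slc16a10, which carries aromatic amino acids, had its highest value at e15.5, with 218 rpm against 97.3 rpm at e12.5 and 17.4 rpm in adult liver, but in the first lists alone e15.5 (104 rpm) lay below e12.5 (148 rpm). Slc25a51, the mitochondrial NAD carrier, had 132, 217, 155, 75.3 and 41.1 rpm. Among the lowest adult over e12.5 ratios were also Slc43a1 (large neutral amino acids) at −5.68, Slc20a1 (phosphate) at −5.39 and Slc6a9 (glycine) at −5.10. The adult value of Slc43a1 rests on 16 reads. With the highest cluster of each gene in place of the sum, these log2 ratios were −2.46, −3.79 and −4.90.

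**Figure D2:**
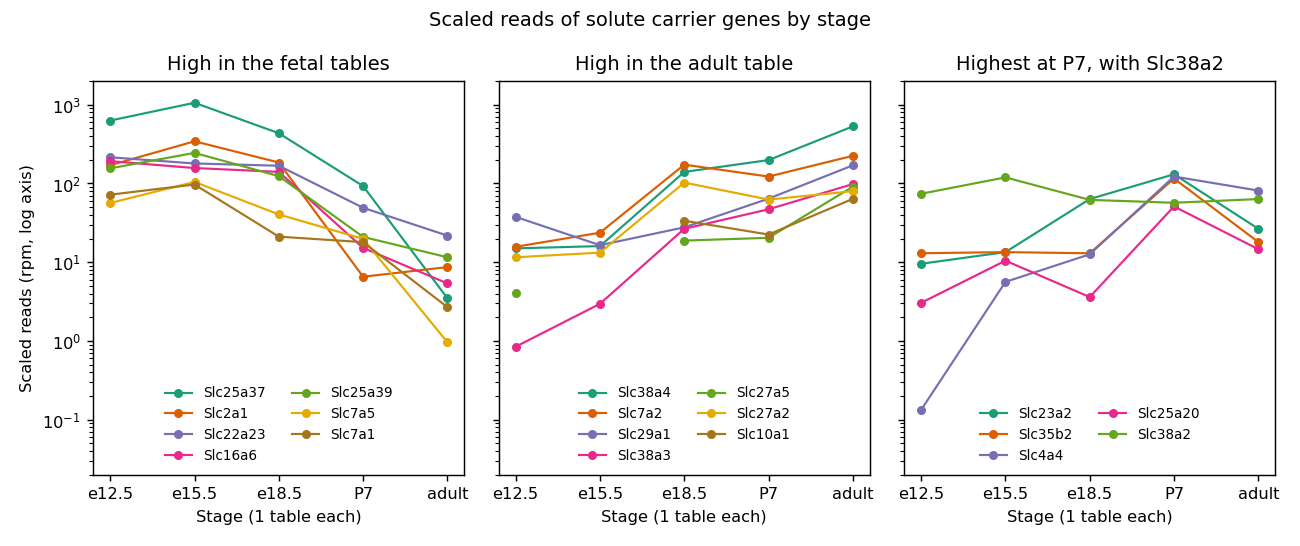
Scaled reads (rpm, log y axis) of 19 solute carrier genes by stage (x axis, 1 table each), with 1 point per table and no point where a gene is not listed. Slc25a37 stands between 435 and 1059 rpm before birth and at 3.50 rpm in adult liver, and Slc38a4 at 15 rpm at e12.5 and 531 rpm in adult liver.

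Several amino acid and bile acid carriers of hepatocytes had the opposite order. Slc38a4, a neutral amino acid transporter of hepatocytes, had 15, 16.0, 140.2, 198 and 531 rpm. It had more reads than any other member at P7 and in adult liver, with 13202 reads in 34 clusters in the latter. Its largest cluster held 54.9% of its adult reads. Slc7a2 (CAT2, cationic amino acids such as arginine) had 15.7, 23.7, 173.5, 122 and 225 rpm, and 52 clusters in adult liver, more than any other member there. Slc38a3, a glutamine transporter, had 0.847, 2.97, 26.6, 47.0 and 98.3 rpm. Its log2 ratio of 6.86 starts from 38 reads in 1 cluster at e12.5 and is 3.42 with the highest cluster alone, and its clusters numbered 10, 26 and 34 in the last 3 tables. Slc27a5, which activates bile acids for conjugation, had 4.01 rpm at e12.5, was not listed at e15.5, and had 18.8, 20.4 and 91.1 rpm afterwards.

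The bile acid transporter Slc10a1 (NTCP) was not listed in the first 2 tables and had 33.7, 22.5 and 63.8 rpm in the others. Slc2a2, the glucose transporter GLUT2, had 3.83, 4.36, 33.1, 35.3 and 34.2 rpm, with its 2 lowest values in the first 2 tables. Slc27a2, for very long chain fatty acids, had 11.6, 13.3, 103, 62.5 and 79.8 rpm. The urea cycle carriers Slc25a13 (aspartate and glutamate) and Slc25a15 (ornithine) had 28.7 and 41.7 rpm in adult liver against 4.41 and 9.56 rpm at e12.5. Slc37a4, which carries glucose-6-phosphate into the endoplasmic reticulum, had 0.758 rpm at e12.5, 27.7 rpm at e18.5 and 13.7 rpm in adult liver.

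Of the 19 genes of the hepatocyte list, 18 had entries and 16 were listed at both e12.5 and adult, of which 10 were at least 4-fold higher in adult liver and 2 at least 4-fold lower, beside 12.48% and 29.25% of all genes. The 2 lower genes were Slc16a1 (the lactate transporter MCT1, −2.40) and Slc16a10 (−2.48), and with reads scaled to mRNA clusters neither reached 4-fold. Slc30a10, a manganese exporter, was also lower, with a log2 ratio of −1.78. The median log2 ratio of the 16 genes was 2.48, against −0.86 over all genes. Summed over the list, reads were 304, 525, 794, 721 and 1346 rpm, beside the hepatocyte marker sums given above. The genes of these lists were chosen for their known roles, with earlier results of these data known, so their direction is a description of named genes.

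Slc29a1 (the nucleoside transporter ENT1) also had a high adult value, with 37.6, 16.5, 27.8, 64.2 and 169.9 rpm. A single cluster held 87.2% of the adult reads of Slc29a1. A 7mer-A1 for miR-223-3p in the 3′UTR had 241 reads at e12.5, was not listed at e15.5, and had 249, 852 and 3263 reads afterwards. Among the 8 highest ratios were also Slc10a5 (a relative of the bile acid transporters, 5.49), Slc17a3 (organic anions, 5.15) and Slc6a12 (betaine, 5.01), which had 33, 30 and 19 reads at e12.5, and 822, 591 and 339 reads in adult liver. With the highest cluster alone their ratios were 2.99, 3.59 and 2.22.

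Other carriers had their highest value at P7 when reads were scaled to all clusters. Slc23a2, a vitamin C transporter, had 9.56, 13.4, 63.4, 131 and 26.6 rpm. Slc35b2, which brings the sulfate donor PAPS into the Golgi, had between 12.99 and 13.4 rpm before birth, 116 rpm at P7 and 18.1 rpm in adult liver. Slc4a4, a sodium bicarbonate cotransporter, had 0.134, 5.63, 12.6, 123 and 81.4 rpm. The mRNA clusters held 20.5% of reads at P7 and 13.5% in adult liver. Scaled to them, the adult value of Slc4a4 lies slightly above that at P7. Its ratio of adult over e12.5, 9.25 on the log2 scale and the highest of all members, starts from 6 reads at e12.5 and is 8.37 with the highest cluster alone. Slc25a20, which carries acylcarnitines into mitochondria for fatty acid oxidation, had 3.05, 10.5, 3.61, 51.1 and 14.7 rpm. In these 4 genes a large part of the P7 reads came from a single cluster, namely 83.4% in Slc23a2, 87.95% in Slc35b2, 58.6% in Slc4a4 and 83.5% in Slc25a20.

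The clusters of Slc23a2, Slc4a4 and Slc25a20 held seed matches for miR-122-5p, the abundant miRNA of hepatocytes. These fragments were chosen because their listed reads were highest at P7. They lie in the single clusters that held a large part of the P7 reads, so site and gene reads are not separate observations. The match is in capitals.
Slc23a2, 5′UTR, chr2:132101615-132101636, minus strand, 7mer-A1 for miR-122-5p: agccctccctgtaacCACTCCA
Slc4a4, CDS, chr5:89197714-89197735, plus strand, 7mer-m8 for miR-122-5p: cctagtcggcgtggACACTCCg
Slc25a20, CDS, chr9:108682012-108682033, plus strand, 7mer-A1 for miR-122-5p: gcttaaaaatctcttCACTCCA
The Slc23a2 site was not listed at e12.5 and had 222, 535, 1800 and 374 reads in the later tables. The Slc4a4 site was likewise not listed at e12.5 and had 56, 22, 1185 and 1104 reads. The Slc25a20 site had 42, 12, 14, 704 and 269 reads. The highest number stood at P7 in each of the 3 sites. These reads are as listed and not scaled to depth. Reads cannot be assigned to a miRNA, since a cluster holds seed matches of several miRNAs, and most entries carry the highest number of their cluster (between 87.9% and 92.5% in the 5 tables).

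Over all members, adult and e12.5 tables differed in both directions, and the balance of higher and lower members depends on the scaling and on the list used. Of the 168 members listed in both, 34 were at least 4-fold higher in adult liver (20.2%), where 12.48% of all 8865 genes were. Another 32 members were at least 4-fold lower (19.05%), where 29.25% of all genes were. The remaining 102 members lay between. The median log2 ratio of members was −0.05 (order-statistic 95% interval −0.48 to 0.43, over genes), against −0.86 for all genes, which include the members. Scaled to mRNA clusters alone, 56 members were higher and 19 lower, beside 19.27% and 17.99% of all genes, and the medians were 0.74 and −0.07. The members' median lay 0.81 above that of all genes under both scalings, by construction, since a change of scaling moves every ratio by the same amount. With the first list of the e12.5 table alone, 8 of 114 members were higher and 41 lower, beside 4.662% and 48.78% of all genes, and the medians were −1.29 and −1.95. With the second list alone, 34 of 161 members were higher and 26 lower, beside 12.3% and 25.7% of all genes, and the medians were 0.13 and −0.66. With a limit of 2-fold, 58 members were higher and 59 lower, beside 21.44% and 47.45% of all genes. Apart from the 168 members in both tables, 43 were listed in adult liver and not at e12.5, and 45 at e12.5 and not in adult liver, against 1302 and 2959 of all genes. These are 20.4% of the members listed in adult liver and 21.1% of those listed at e12.5, against 12.8% and 25.03% of all genes. The e12.5 table is the deeper of the 2.

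The lists within an embryonic table give an idea of the spread of such ratios. For 125 members listed in both lists of the e12.5 table, the log2 ratio of the second list over the first, centred on the median of all genes, had a median size of 0.69, and 10.4% of members were 4-fold or more apart, against 12.7% of all genes. Of the members in both lists at e15.5 and e18.5, 21.1% and 9.09% were, against 21.1% and 11.9% of all genes. The study's methods speak of biological replicates for Ago2 and its supplement names a second library at e18.5 alone, but whether the lists are replicates is not given in the sources used here, so this spread was not used as a replicate error.

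**Figure D3:**
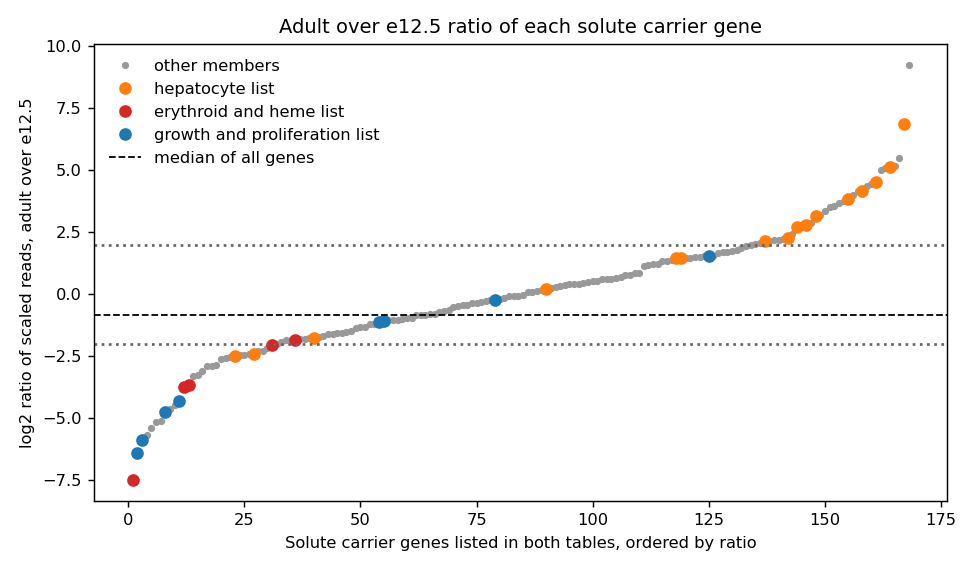
log2 ratio of scaled reads in adult over e12.5 liver (y axis) for the 168 solute carrier genes listed in both tables, ordered by ratio (x axis), with 1 point per gene and the 4-fold limits dotted. The erythroid and growth lists lie mostly at the lower end and the hepatocyte list mostly at the upper end, and the dashed line marks the median of all genes (−0.86).

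Across birth, 21 of 165 members were at least 4-fold higher at P7 than at e18.5 (12.7%, beside 10.6% of all 9204 genes) and 24 at least 4-fold lower (14.5%, beside 14.92%). With these settings both shares were close to those of all genes. The median log2 ratio was −0.29 for members and −0.45 for all genes. With reads scaled to mRNA clusters, 34 members were higher and 12 lower, beside 15.49% and 8.355% of all genes. The counts were 12 and 53 with the highest cluster of a gene (4.976% and 27.86% of all genes), 7 and 28 of 141 members with the first list of e18.5 (3.582% and 21.88%) and 18 and 8 of 144 with the second (7.009% and 7.431%). They were 30 and 13 with reads scaled to library totals (14.62% and 9.159% of all genes) and 45 and 62 with a limit of 2-fold (20.94% and 35.1%), so the balance of higher and lower members depends on these choices. The largest differences, chosen after the values were seen, were Slc45a3, with 0.461 rpm at e18.5 and 11.8 rpm at P7, and Slc38a9, with 11.3 and 0.303 rpm. They rest on 6 and 5 reads at the lower stage. Of the larger genes, Slc2a1 and Slc16a6 had log2 ratios of −4.82 and −3.21, and Slc25a20, Slc4a4 and Slc35b2 had 3.82, 3.28 and 3.15.

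For the 122 members listed at every stage, the stage with the highest reads was counted. It was the first table for 12 members and the following ones for 29, 33, 32 and 16. These are 9.84%, 23.8%, 27.0%, 26.2% and 13.1%, beside 18.6%, 28.6%, 30.3%, 15.2% and 7.22% of 6535 genes listed at every stage. The order depends on the scaling, for with mRNA clusters as the base the highest stage was adult for 42 members and e18.5 for 15 (34.4% and 12.3%, beside 19.8% and 17.9% of all such genes). Only 19 of the 122 members stayed within a 4-fold range over the 5 tables (15.6%, beside 20.1% of all such genes).

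Solute carrier clusters lay in 3′UTRs more often than those of all genes, at each stage. The 3′UTR held 51.7%, 54.0%, 52.5%, 48.9% and 40.0% of member clusters, against 41.5%, 40.4%, 38.0%, 36.9% and 29.7% of all mRNA clusters. Clusters with more than 1 region count in each of them. The CDS held 49.3% of member clusters at e12.5 (interval 47.0 to 51.6) and 60.6% in adult liver (58.1 to 63.1), against 61.3% and 72.9% of all mRNA clusters. The adult CDS share of members was thus 11.4 percentage points above that at e12.5 (7.95 to 14.8). The 5′UTR held between 5.36% and 6.89% of member clusters.

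The split between regions differed between genes. In adult liver, Slc27a5 had 22 of its clusters in the CDS and 1 in the 3′UTR, and Slc27a2 had 22 and 1. Slc7a2 had 17 in the CDS and 32 in the 3′UTR. At e12.5, Slc11a2 had 15 in the CDS and 39 in the 3′UTR, whereas Slc43a1 had 21 and 5.

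**Figure D4:**
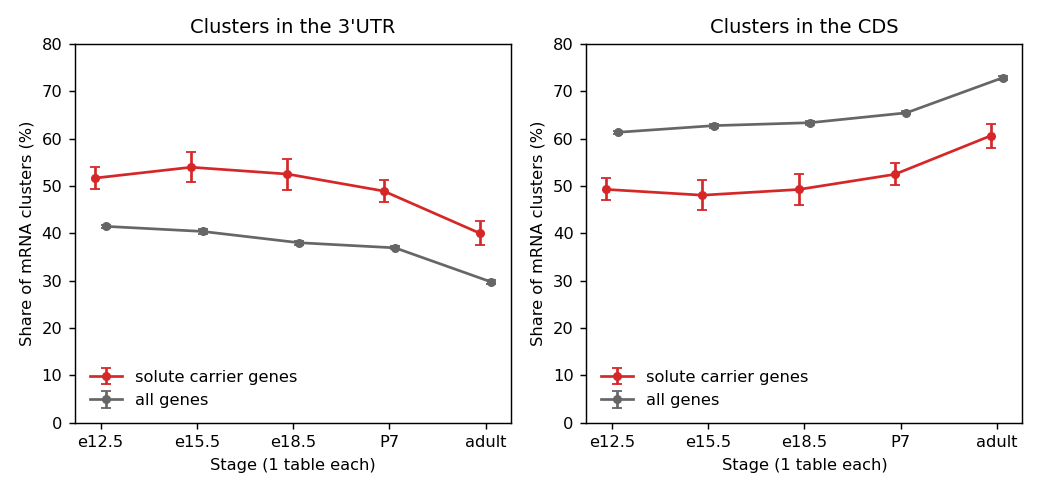
Share of mRNA clusters (%, y axis) listed under the 3′UTR (left) and the CDS (right) at each stage (x axis, 1 table each), for solute carrier genes and all genes, with Wilson 95% intervals that cover counting error only. Solute carrier genes lie above all genes for the 3′UTR and below them for the CDS at all 5 stages.

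The miRNAs with sites in solute carrier clusters were compared with those in all clusters. The miRNA reads were taken from the number in each interaction name, whose meaning is not given in the sources used here. Of these reads, miR-142a-3p made up 32.2% at e12.5 and 4.34% in the adult table, and miR-144-3p 21.7% and 1.54%. For miR-122-5p the values were 1.44% and 11.2%, and for let-7c-5p 0.464% and 15.6%. A miR-122-5p site lay in 1.65%, 1.79%, 2.14%, 2.33% and 4.39% of member 3′UTR clusters. These were 15 clusters at e12.5 and 26 in the adult table (interval 3.01 to 6.36). For all genes these shares were 1.01%, 1.30%, 2.17%, 2.62% and 3.66%, and the intervals of members and all genes overlapped in each table. Sites of the let-7 seed lay in 0.662% of member 3′UTR clusters at e12.5 (6 clusters) and 2.36% in adult liver (14 clusters), against 0.791% and 2.35% for all genes. The members with a miR-122-5p site in the 3′UTR or CDS numbered 22, 15, 18, 28 and 37. These were 10.5%, 9.32%, 10.2%, 12.8% and 17.7% of the members listed in these regions, against 8.23%, 6.65%, 8.62%, 14.0% and 14.6% of all genes. The intervals overlapped in each table, with 13.1 to 23.4 for members and 13.9 to 15.3 for all genes in the last.

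Of 120 such comparisons (12 seeds, 2 regions and 5 tables), the intervals of members and all genes were apart in 9, of which 7 had the higher share in members. These were picked from the 120 after the values were seen. The seed of miR-16-5p in the CDS accounted for 3 of them. Its matches lay in 5.55% (interval 4.21 to 7.28), 5.13% (3.45 to 7.59), 7.99% (5.80 to 10.9), 7.81% (6.25 to 9.72) and 7.92% (6.32 to 9.87) of member CDS clusters. For all genes the share was between 4.51% and 5.37%, and from e18.5 on the interval of the members lay above that of all genes. In 3′UTR clusters, the share for this seed was between 1.79% and 3.64% in members and between 3.15% and 3.71% in all genes. A match in 71 CDS clusters in adult liver came from 52 members. Clusters of 1 gene are not independent of each other. The other higher shares were those of miR-30 in 3′UTRs at e12.5 (2.43% against 1.199%), of let-7 in the CDS at e15.5 (2.46% against 1.03%, 11 clusters) and of miR-126a-3p in 3′UTRs in the first 2 tables (0.662% and 0.596%, 6 and 3 clusters, against 0.114% and 0.104%). miR-142a-3p had lower shares in the CDS, with 0 of 438 member clusters at e18.5 (which allows a share of up to 0.685% by 3 counts, with a Wilson limit of 0.869%) against 1.44%, and 1 of 897 in the adult table against 0.777%.

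**Figure D5:**
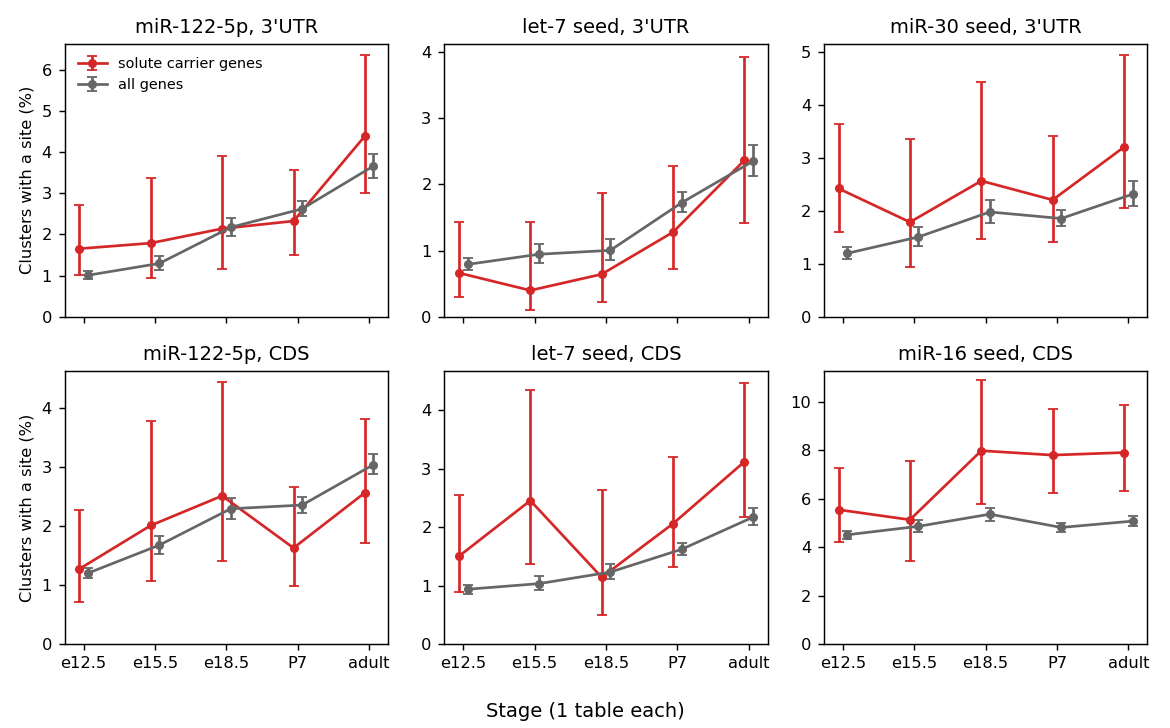
Share of clusters (%, y axis) with at least 1 seed match, for miR-122-5p, let-7 and miR-30 in the 3′UTR (upper row) and for miR-122-5p, let-7 and miR-16 in the CDS (lower row), at each stage (x axis, 1 table each), for solute carrier genes and all genes, with Wilson 95% intervals that cover counting error only. For miR-16 in the CDS, solute carrier genes lie at 7.99%, 7.81% and 7.92% in the last 3 tables, above all genes at 5.37%, 4.82% and 5.08%.

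Sites for miR-122-5p with at least 7 matched bases were found at 49 positions in 41 members over the 5 tables, and 14 positions in 13 members were listed at 3 or more stages. Of the 10 of these with most reads, 3 are given above and the others lay in the 3′UTRs of Slc25a51 (at 2 positions), Slc2a1, Slc10a7 (a relative of the bile acid transporters), Slc29a3 (a nucleoside transporter of lysosomes) and Slc18b1 (polyamines), and in Slc35b4 (nucleotide sugars of the Golgi and endoplasmic reticulum). The 8mers among these are shown because they have the longest match, and that of Slc29a3 was found in every table.
Slc29a3, 3′UTR, chr10:60715465-60715486, minus strand: aacacttccagagaACACTCCA
Slc10a7, 3′UTR, chr8:78732178-78732199, plus strand: ccatccatccccgcACACTCCA
Slc25a51, 3′UTR, chr4:45397935-45397956, minus strand: aatgctgtcccactACACTCCA
The Slc29a3 site had 51, 44, 45, 61 and 98 reads. The Slc10a7 site had 91, 247 and 85 reads in the last 3 tables. The Slc25a51 site had 12 reads at e12.5, was not listed at e15.5 and had 59, 77 and 356 reads afterwards, and it overlaps a 7mer-A1 for miR-142a-3p with the same numbers. The 2 sites lie in the same cluster and cannot be told apart. A second position in Slc25a51 had 99, 49, 68 and 122 reads in the same tables. In Slc2a1 a 7mer-m8 had 81, 123 and 113 reads before birth, was not listed at P7 and had 118 reads in the adult table, of 216 reads of the whole gene there.

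Slc7a1 (CAT1), a known miR-122 target, had an 8mer for miR-122-5p in its 3′UTR with 96 and 34 reads in the first 2 tables, and a 7mer-A1 with 60 and 19 reads. Neither was listed in the later tables. The gene was looked at for its known relation with the miRNA, after the values were seen.
Slc7a1, 3′UTR, chr5:148332102-148332115, minus strand, 8mer for miR-122-5p: atgtgcACACTCCA
In Slc7a2 (CAT2), whose reads were higher at the later stages, 6mers for miR-122-5p had 149, 76 and 469 reads in the CDS and 5, 111 and 214 in the 3′UTR in the last 3 tables.

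Of sites for let-7 with at least 7 matched bases, 59 positions in 53 members were found and 8 were listed at 3 or more stages. The first by reads lay in the CDS of Slc27a2, with 33 reads at e12.5 and 41 and 417 after birth, and the next in the CDS of Slc25a13, with 8, 112 and 275 in the last 3 tables. Both are shown with the miRNA because they are carriers of hepatocyte metabolism with the site in the coding region.
let-7c-5p, mature sequence: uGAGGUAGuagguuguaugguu
Slc27a2, CDS, chr2:126553212-126553233, plus strand, 7mer-m8: acctgctgctgcccCTACCTCc
Slc25a13, CDS, chr6:6042170-6042191, minus strand, 8mer: taagccatcagcatCTACCTCA
In both genes the highest number was in adult liver. There let-7c-5p had the largest share of all miRNAs (15.6%, with 11.2% for miR-122-5p), by the number taken as the miRNA read count. The study instead describes miR-122 as the most abundant miRNA at that stage. Further let-7 sites at 3 or more stages were in the CDS of Slc26a2 (sulfate) and Slc9a3r1 (a scaffold protein) and the 3′UTR of Slc8b1 (mitochondrial sodium and calcium exchange). In the 3′UTR of Slc38a4, a site chosen after the values were seen, an 8mer of the miR-30 family had 9 reads at e12.5 and 228, 614 and 552 in the last 3 tables.
miR-30a-5p, mature sequence: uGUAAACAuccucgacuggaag
Slc38a4, 3′UTR, chr15:96995839-96995860, minus strand, 8mer: gtaatgctcttcacTGTTTACA

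For the miRNAs of the early stages, 21 positions with at least 7 matched bases were found for miR-142a-3p in 20 members and 25 for miR-144-3p in 22 members. The 8mer for miR-142a-3p in the 3′UTR of Slc35f6 had 354, 198, 17 and 46 reads and was not listed in the adult table. In Slc25a3, the mitochondrial phosphate carrier, a 7mer-A1 for miR-144-3p had 330, 576 and 13 reads at the fetal stages and was not listed afterwards. A 7mer-A1 in the CDS of the lactate transporter Slc16a1 had 108, 186 and 20 reads and was not listed afterwards either.
miR-142a-3p, mature sequence: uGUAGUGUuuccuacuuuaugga
Slc35f6, 3′UTR, chr5:30658171-30658193, plus strand, 8mer: tagcctatgaaccatACACTACA
miR-144-3p, mature sequence: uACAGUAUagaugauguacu
Slc25a3, 3′UTR, chr10:91116851-91116870, minus strand, 7mer-A1: ttcctgatataatTACTGTA
Slc16a1, CDS, chr3:104653140-104653156, plus strand, 7mer-A1: aggggcttttTACTGTA
Not every such site had this order. The 7mer-A1 for miR-144-3p in the 3′UTR of the thiamine transporter Slc19a2 had 68, 31, 18 and 28 reads up to P7 and 198 in adult liver. The 7mer-A1 sites named here do not pair with base 8 of miR-144-3p. Any other miRNA with the same seed before that base would match them equally, so they are not specific to miR-144-3p. Which miRNA bound them was not tested.

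Among sites for the 20 most abundant miRNAs of each table, 9 positions in 9 members were listed at all 5 stages. The first by reads was a 6mer for miR-144-3p in Slc25a3, with 519, 475, 349, 170 and 461 reads. This 6mer does not pair with base 8 of the miRNA either, so it is not specific to miR-144-3p. Next by reads was an 8mer for miR-26a-5p in the 3′UTR of Slc36a1, a proton-coupled amino acid transporter of lysosomes, with 146, 154, 170, 240 and 390 reads. The other positions were in Slc25a20, Slc30a1 (zinc export), Slc38a2, Slc35b4, Slc37a3 (a relative of the glucose-6-phosphate carrier), Slc19a2 and Slc29a3. Most positions were seen once: of 10180 positions of seed matches in member 3′UTRs, 73.9% were listed at 1 stage and 0.717% (73 positions) at all 5. For all genes these shares were 78.2% and 0.566%. In the CDS 54 of 10598 positions of members recurred at all stages (0.510%, interval 0.391 to 0.664), against 0.879% for all genes.

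Seed matches in the 3′UTRs of solute carriers had lower conservation scores than those of all genes. The conservation score of the tables runs from 0 to 1, and its method is not given in the sources used here. In 3′UTRs, 32.5% of the member positions had a score of at least 0.5 at e12.5 (interval 31.2 to 33.8) and 37.8%, 34.3%, 25.5% and 32.1% in the later tables, against 44.9%, 50.2%, 46.2%, 41.6% and 44.0% for all genes. The median over genes of the gene medians was 0.035 in members and 0.152 in all genes at e12.5, and 0.034 and 0.261 in adult liver. Positions in a gene are not independent, and the intervals treat them as if they were. In the CDS the shares were 84.8% and 85.2% at e12.5 and 78.1% and 79.6% in adult liver for members and all genes. Of the sites shown above, all 5 in the CDS scored between 0.851 (Slc16a1) and 1 (Slc25a13). Those in the 3′UTRs of Slc25a3 (1), Slc38a4 (0.995), Slc25a37 (0.981), Slc10a7 (0.905) and Slc29a3 (0.772) also scored over 0.5, while those of Slc7a1 (0.146), Slc25a51 (0.080) and Slc35f6 (0.010) and the 5′UTR site of Slc23a2 (0.001) scored below it.

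The seed types of members were close to those of all genes. At e12.5, 54.6% of member sites were 6mers, 14.3% 7mer-A1, 23.1% 7mer-m8 and 7.997% 8mers, against 52.7%, 16.6%, 22.8% and 7.94% for all genes. In adult liver 53.6%, 13.5%, 25.5% and 7.43% of member sites were of these types, against 52.5%, 16.2%, 23.2% and 8.06%. The share of 7mer-A1 was lower in members than in all genes at each of the 5 stages.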

How the data were processed

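Each stage has a deposited table of interactions, and groups follow the sample titles. The authors processed reads with the FASTX-Toolkit, aligned them by Bowtie against mm10 and the miRNA precursors of miRBase 19, formed clusters and scanned them for seed matches of known mouse miRNAs; the submitters' processing notes name mm9 as well, and the positions used here match mm10 (GRCm38). Versions of the FASTX-Toolkit and Bowtie are not given in the sources used here. The read number deposited by the authors is a signal of whole numbers of at least 5, not scaled. Per the file headers it is a maximum over the peak, except that the e12.5 header names the miRNA target instead, and both were read alike. It differed between entries in 12.3% of the e12.5 clusters with several entries and in 8.98% to 13.5% of those of the other tables, and the highest was used for each cluster in all 5. The deposited conservation score was used as given. Each gene was paired with its own region in an entry. The 2 lists of each embryonic table were joined for cluster counts, where overlapping clusters on a strand counted once, and added up for reads. Alternatives were other scalings, 1 list alone, the highest cluster of a gene, entries under 1 symbol, higher read minimums, longer matches and a 2-fold limit. The number in an interaction name was taken as the miRNA read count, which the tables do not explain. Shares have Wilson 95% intervals. A 4-fold limit was used, with no test, as there is 1 table per stage. The genes named were the 5 with most reads in each table, the 8 highest and 8 lowest adult over e12.5 ratios among 155 members with at least 50 reads in 1 of the 2 tables, 35 carriers with known roles in liver, and recurring sites of miR-122-5p, let-7, miR-142-3p, miR-144-3p and the 20 most abundant miRNAs. Sites of Slc25a37, Slc38a4, Slc29a1, Slc7a1 and Slc7a2 were added after the values were seen. Members and lists were chosen with earlier results of these data known. Mature miRNA sequences are from RefSeq (GRCm38.p6), and 70 of 70 site fragments were equal to the genome. All 274 members matched a RefSeq gene. Some members are counted but not reported here by name. The functions were tested on simulated data. Python 3.11.15, numpy 2.4.6, pandas 2.3.3, scipy 1.17.1 and matplotlib 3.10.9 were used.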

Additional observations from a re-analysis of the deposited data

How the results depend on the processing

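No paired analysis was possible because each stage has 1 table, and for the same reason leaving out a replicate was not run.

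The difference between adult and e12.5 in the share of mRNA clusters was 0.531 percentage points with the first list of the embryonic tables only, and that in the share of reads was 0.795 points with sites of at least 7 matched bases, 0.270 with the first list, 1.08 with the second list and 1.17 with entries under 1 gene symbol. The number of members 4-fold higher in adult liver was 56 when scaled to mRNA clusters, 8 with the first list only, and 58 with a limit of 2-fold. The number 4-fold lower was 19 when scaled to mRNA clusters and 59 with the 2-fold limit. At P7 against e18.5, the higher members were 34 when scaled to mRNA clusters, 12 with the highest cluster of a gene, 7 with the first list and 45 with the 2-fold limit, and the lower members were 12, 13 with library totals, 53 with the highest cluster, 8 with the second list and 62 with the 2-fold limit. The median log2 ratio of members turned positive when scaled to mRNA clusters (0.74) or library totals (0.25), with the second list (0.13) and with entries under 1 gene symbol (0.095), and was −1.29 with the first list. It stayed above that of all genes in each of these settings, which for a change of scaling alone holds by construction. The cause of the changes was not tested beyond the shift that the scaling itself makes. The other 33 values of these comparisons were within 1.5 times the count or inside the 95% interval. Counts were compared without regard to the number of members listed. The members 4-fold lower in adult liver, for example, were 41 of 114 with the first list and 32 of 168 with both. Of the values for single stages and genes, 21 lay outside the interval of the stage's share, such as the e15.5 CDS share of 38.8% with the first list (48.1% with both), and 147 stayed inside it or on their side of the 4-fold limit. None of the 8 highest and 8 lowest adult over e12.5 ratios changed sign or came under 4-fold where the gene was listed, but besides the shift of 0.79 with mRNA scaling, 12 of these 16 moved by over 1.5 times with the highest cluster of a gene, 5 of 10 with the first list and 3 of 15 with the second. With the highest cluster they changed, as from 6.86 to 3.42 for Slc38a3, from 5.49 to 2.99 for Slc10a5 and from −5.68 to −2.46 for Slc43a1. Small counts limit single genes, since members with 5 or 6 reads at 1 stage have ratios that rest on the lowest reads listed.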
